A study of Xiphophorus multilineatus with 4 samples.

Results

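The expression of tph1a and saga was followed in the whole brains of 4 adult male swordtails (Xiphophorus multilineatus), and these genes are 2 of the 18872 transcripts in the deposited count table. Their rows were found by transcript identifier, ENSXMAT00000007146 for tph1a and ENSXMAT00000013129 for saga, with the names that the study gives in its list of transcripts differing between the rearing groups. Both genes were thus chosen by their read counts, which were higher in HQJE fish in these same brains, and the difference between the groups is given as a description, with no test. The HQJE males (n = 2, fish 15 and 11) came from the high quality juvenile environment. There, young fish were housed alone from an early age, though not from birth, and had Tetramin and brine shrimp without limit. The LQJE males (n = 2, fish 17 and 18) came from the low quality juvenile environment, which was a crowded group tank with a daily feeding of Tetramin. Food, density and contact with other fish changed together in this design and cannot be told apart. All 4 males descended from wild-caught females, were reared in the laboratory, belonged to the Y-II size class and received the high quality adult diet. The entire brain was used, and a polyA RNA library was made from each brain.

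The gene tph1a encodes a tryptophan hydroxylase, the enzyme of the rate-limiting step in the synthesis of serotonin. In the pineal gland, a light-sensitive organ on the roof of the brain, serotonin is the precursor of melatonin, the hormone released in darkness. In mammals TPH1 is the form of the enzyme in the pineal gland and the gut, whereas TPH2 serves the serotonin neurons of the raphe, and in zebrafish copies of tph1 are also active in serotonin cells of the hypothalamus. The gene saga encodes an arrestin (S-antigen) that binds light-activated, phosphorylated opsin and so ends the light response in rod photoreceptors of the retina and in photoreceptors of the pineal gland. In a whole brain, more cells of a type and more RNA per cell cannot be told apart. The markers that define pineal cells, such as aanat2 and the pineal opsin, and those that define neurons are not paired with transcript identifiers in the sources used here, so the presence of pineal tissue and the label of the tissue were not checked.

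Total counts ranged from 14260762 to 25531496 per brain, and expression is given as CPM, the counts of a transcript scaled to a common library size with TMM factors, which corrects for depth but not for transcript length. Intervals are exact 95% Poisson intervals of the counts and cover counting error only. Among the 15087 transcripts averaging 1 CPM or more over the brains, HQJE fish 15 was at least 2-fold above every other brain in 24 and HQJE fish 11 in 34, against 391 for LQJE fish 17 and 28 for LQJE fish 18. Fish 17, the brain with the lowest total count, is therefore the brain that most often stood above all others. The high brain itself counts toward that average and can bring a transcript above 1 CPM. Transcripts in which a brain lay below all others were not counted. The fold changes of tph1a and saga are also given without fish 17.

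The transcript of tph1a was read 1350 and 430 times in HQJE fish 15 and 11, and 201 and 291 times in LQJE fish 17 and 18. This corresponds to 61.4 CPM (58.2 to 64.8) in HQJE fish 15 and 19.4 CPM (17.6 to 21.4) in HQJE fish 11, against 14.6 CPM (12.6 to 16.7) in LQJE fish 17 and 11.6 CPM (10.3 to 13.0) in LQJE fish 18. Fish 15 was far above the other brains, and the lower HQJE brain was a little above the higher LQJE brain. The groups thus did not overlap, and both HQJE brains were likewise above both LQJE brains in 19.5% of transcripts averaging 1 CPM or more. Expression of tph1a averaged 40.4 ± 29.7 CPM in HQJE fish and 13.1 ± 2.10 CPM in LQJE fish (SD, n = 2 each). The log2 fold change, HQJE over LQJE, was 1.64, while the SD in HQJE fish was larger than the difference between the group means.

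The transcript of saga was read 250 and 37 times in HQJE fish 15 and 11, and 23 and 41 times in LQJE fish 17 and 18. This corresponds to 11.4 CPM (10.01 to 12.9) in HQJE fish 15 and 1.67 CPM (1.18 to 2.30) in HQJE fish 11, against 1.67 CPM (1.06 to 2.50) in LQJE fish 17 and 1.63 CPM (1.17 to 2.22) in LQJE fish 18. Fish 15 alone was high, and the other 3 brains, from both groups, lay at the same level within counting error. Expression of saga averaged 6.52 ± 6.86 CPM in HQJE fish and 1.65 ± 0.0238 CPM in LQJE fish (SD, n = 2 each), a log2 fold change of 1.98. The SD in HQJE fish was again larger than the difference between the means.

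**Figure D1:**
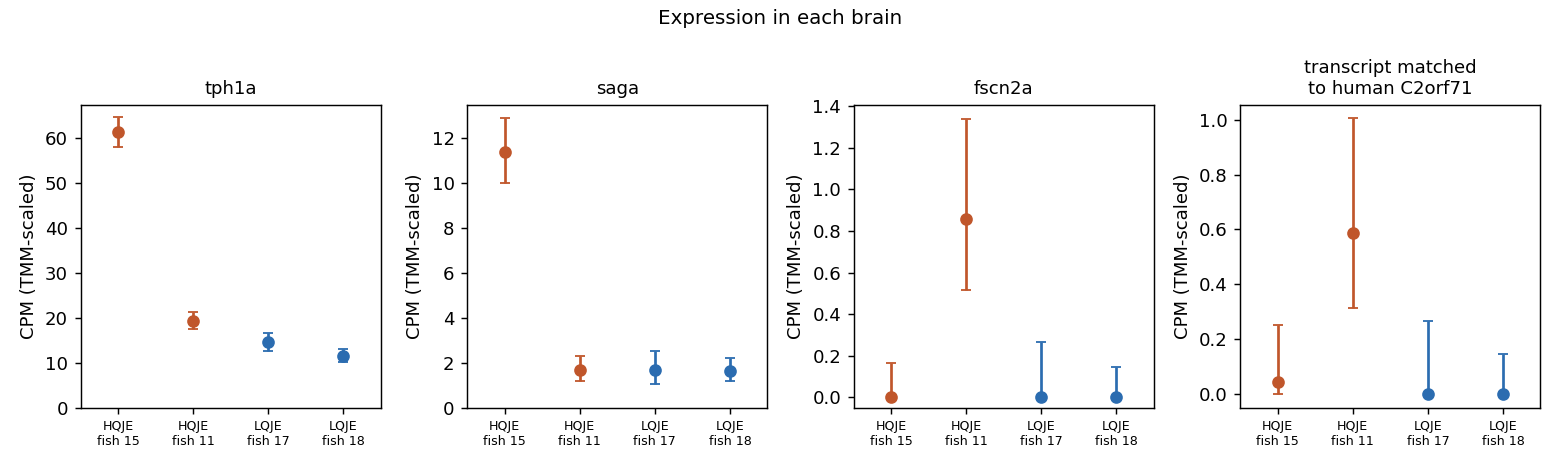
Expression in CPM (TMM-scaled) of tph1a, saga, fscn2a and the transcript matched to human C2orf71 in each brain, with HQJE fish at the left of each panel. Points are single brains and bars are exact 95% Poisson intervals for counting error. HQJE fish 15 is the high brain in tph1a (61.4 CPM) and saga (11.4 CPM), whereas HQJE fish 11 holds nearly all reads of the other 2 transcripts.

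Fish 15 held 57.4% of the CPM of tph1a summed over the 4 brains and 69.6% of that of saga. In tph1a it was 4.21-fold above LQJE fish 17 and 5.30-fold above LQJE fish 18, and in saga it was 6.82-fold and 6.96-fold above the same brains. The other HQJE brain, fish 11, had 1.54 times the tph1a level of the pooled LQJE brains (exact 95% interval for counting error 1.35 to 1.75). For saga the same ratio of fish 11 to the pooled LQJE brains was 1.02 (0.659 to 1.55), so a difference was not detectable at this depth, and the interval allows a change of up to 1.55-fold. Fish 11 thus lay above the pooled LQJE brains beyond counting error in tph1a, but not in saga. The LQJE brains also differed from each other beyond counting error in tph1a, at 1.26-fold (1.04 to 1.51). The interval of the pooled ratio leaves this difference out.

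The other HQJE brain, fish 11, was nearer to the LQJE brains than to fish 15 in tph1a. The ratio of HQJE fish 11 to LQJE fish 17, the nearest brains of the groups, was 1.33 (1.13 to 1.58), and that of HQJE fish 11 to LQJE fish 18 was 1.68 (1.44 to 1.95). The LQJE brains themselves differed by 1.26-fold (1.04 to 1.51), fish 17 over fish 18. The interval of this ratio overlapped that of fish 11 to fish 17, so counting error does not separate these steps, which share fish 17. The step from fish 15 to fish 11, of 3.16-fold (2.83 to 3.53), lay above all of these.

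The fold change of both genes stayed positive whichever brain was left out, but its size was set by fish 15. Without fish 15 the log2 fold change of tph1a was 0.58 and that of saga was 0.019, near no difference. Without fish 11 the values were 2.24 for tph1a and 2.78 for saga. Leaving out LQJE fish 17 or 18 changed them less, to 1.80 or 1.50 in tph1a and to 1.99 with either brain left out in saga. In these fits the group with a brain left out consists of a lone brain, which is assumed to vary like the others.

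**Figure D2:**
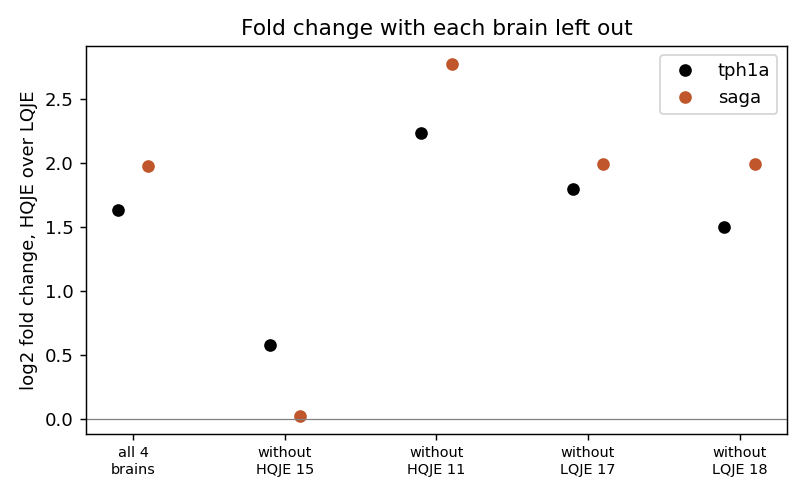
The log2 fold change, HQJE over LQJE, of tph1a and saga with all 4 brains and with each brain left out. Each point is the value of a fit across all transcripts. The values lie between 1.50 and 2.78 except without HQJE fish 15, where they are 0.58 for tph1a and 0.019 for saga.

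The brains of both genes had the same order, fish 15, 11, 17 and 18 from high to low. For saga this order is nominal beyond fish 15, since the ratio of HQJE fish 11 to LQJE fish 17 was 1.003 (0.580 to 1.77) and that of LQJE fish 17 to 18 was 1.02 (0.585 to 1.74). The order was found in 390 (2.59%) of the 15087 transcripts averaging 1 CPM or more, which are 13.2% of the 2947 transcripts in which both HQJE brains were above both LQJE brains. Such a separation occurred in 19.5% of the 15087 transcripts and in 18.8% of all 18474 tested transcripts, so it sets neither gene apart. A log2 fold change of at least 1 toward HQJE fish, which both genes were chosen for, was seen in 2.85% of all tested transcripts and in 0.49% of those averaging 1 CPM or more. The threshold of the study adds an unadjusted p of 0.01 or less. With it, edgeR's quasi-likelihood test called 0.0487% of all tested transcripts higher in HQJE fish and 0.189% in either direction. These shares depend on the test used. The study's own list at this threshold is longer, with 131 transcripts, 48 of them higher in HQJE fish. Its methods name edgeR but not which of its tests. The edgeR exact test called a like number here, 133, of which 49 were higher, and whether these are the same transcripts was not compared. Nothing is read from these calls for genes that were chosen by the same contrast. In all 3 ways of scaling the libraries the order of the brains was unchanged in both genes.

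The difference between the HQJE brains was large beside that of other transcripts of like mean CPM. In 4503 transcripts whose mean CPM was within 2-fold of tph1a and which were read in every brain, the median fold between fish 15 and fish 11, in either direction, was 1.09, and 12 of them differed by 3.16-fold or more as tph1a did. For saga the median over 3773 such transcripts was 1.23, and 10 of them differed by 6.80-fold or more as saga did. Between the LQJE brains, by contrast, the 1.26-fold difference in tph1a was matched or passed by 807 of the 4503 transcripts, and the 1.02-fold difference in saga by 3574 of the 3773. Beside transcripts of like mean CPM, the HQJE brains were thus unusually far apart in both genes, while the LQJE brains were not. The mean used for this match is itself raised by fish 15, while saga lay between 1.63 and 1.67 CPM in the other brains. Its like transcripts can thus be better read than saga in those brains and vary less by counting error. Because a gene chosen for a high mean in HQJE fish is apt to be high in some HQJE brain, these counts are a description only. A gap between the HQJE brains was common among the 48 transcripts on the study's list that were higher in HQJE fish. Fish 15 was more than 2-fold above fish 11 in 13 of them and more than 2-fold below it in 20.

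**Figure D3:**
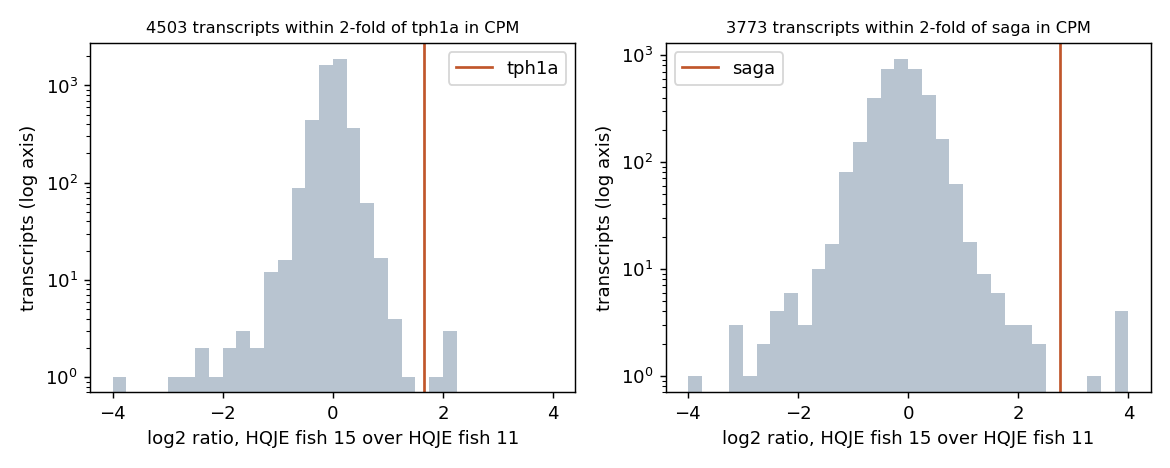
Distribution of the log2 ratio of HQJE fish 15 to HQJE fish 11 over transcripts whose mean CPM is within 2-fold of tph1a (4503, left) or of saga (3773, right) and that were read in every brain, with the number of transcripts on a log axis and ratios beyond 4 drawn in the outermost bars. The vertical lines mark tph1a at 1.66 and saga at 2.77, both in the upper tail of a distribution centred near 0.

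Relative to tph1a, saga was read most in fish 15. There were 18.5 counts of saga for 100 counts of tph1a in HQJE fish 15 (exact 95% interval 16.1 to 21.2) and 8.60 in HQJE fish 11 (5.98 to 12.1), against 11.4 in LQJE fish 17 (7.09 to 17.7) and 14.1 in LQJE fish 18 (9.90 to 19.6). Transcript length is the same in every brain, so these ratios can be compared between brains, but they do not give the level of one gene relative to the other. The intervals of the HQJE brains did not overlap, so that the ratio differed between these brains beyond counting error. Both LQJE brains lay between them, with intervals that overlapped those of both HQJE brains.

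**Figure D4:**
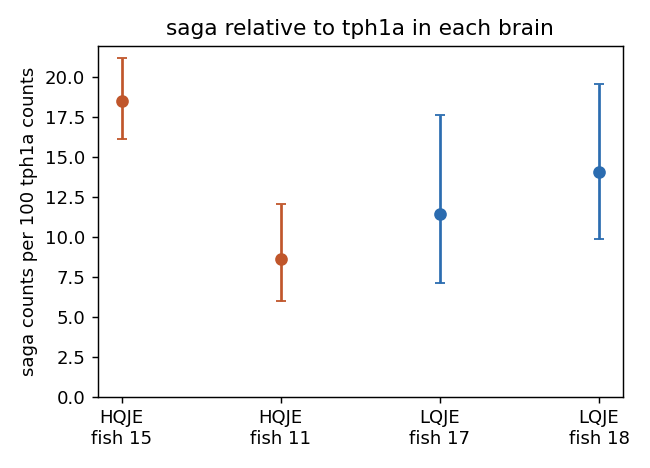
Counts of saga for 100 counts of tph1a in each brain, with HQJE fish at the left. Bars are exact 95% intervals for counting error. HQJE fish 15 has the highest ratio (18.5) and HQJE fish 11 the lowest (8.60), with both LQJE brains between them.

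Of the pineal and photoreceptor genes on a longer list, only those named in the study's list of differing transcripts could be found in the table, which are tph1a, saga and 2 more. The gene fscn2a encodes the retinal fascin, a protein that bundles actin in photoreceptors, and its transcript (ENSXMAT00000012557) had 0 counts in HQJE fish 15 and 19 counts in HQJE fish 11, against 0 counts in both LQJE brains. The upper ends of the Poisson intervals of these 0 counts lay at 0.168 CPM for HQJE fish 15, and at 0.267 CPM for LQJE fish 17 and 0.147 CPM for LQJE fish 18, while fish 11 had 0.859 CPM (0.517 to 1.34). The transcript ENSXMAT00000018466 is matched to human C2orf71, which encodes a protein of the photoreceptor cilium, and it had 1 count in HQJE fish 15 and 13 counts in HQJE fish 11, against 0 counts in both LQJE brains. These genes were also chosen for being higher in HQJE fish, but in both it was fish 11 that carried the reads. The brain with the most tph1a and saga was thus at or near 0 in the other 2 photoreceptor transcripts.

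The transcripts whose profile over the 4 brains was nearest to the 2 genes were sought among those averaging 1 CPM or more, by the root mean square difference of log2 CPM after each profile was centred on its mean. The nearest to tph1a was myo7bb (ENSXMAT00000011722), an unconventional myosin matched to human MYO7B, at a difference of 0.22. It had 42.4 and 8.95 CPM in HQJE fish 15 and 11, against 8.26 and 5.82 CPM in LQJE fish 17 and 18. The nearest to saga was si:ch211-94l19.4 (ENSXMAT00000018032), described as myosin ID, another unconventional myosin, at a difference of 0.17. It had 30.4 and 4.47 CPM in HQJE fish 15 and 11, against 5.80 and 4.10 CPM in LQJE fish 17 and 18, so the groups overlapped. In both myosins fish 15 was the high brain, as in tph1a and saga, which their choice by nearness fixes.

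The gene myo7bb was also the third nearest to saga, at 0.24, and tph1a was the fourth, at 0.38, while saga came in place 6 for tph1a. The second nearest to saga was ENSXMAT00000016272, with 67 and 6 counts in HQJE fish 15 and 11 against 6 and 7 counts in LQJE fish 17 and 18. It reached the minimum average only through fish 15, at 3.05 CPM against at most 0.435 CPM in the other brains. The other transcripts among the 5 nearest to either gene, ENSXMAT00000002443, ENSXMAT00000016748, ENSXMAT00000011161 and ENSXMAT00000016567 for tph1a and ENSXMAT00000004085 for saga, have no name in the sources used here. Fish 15 was the highest brain in every one of the near transcripts, which the choice by nearness to genes that peak in fish 15 fixes. In ENSXMAT00000016272 and in these unnamed transcripts other than ENSXMAT00000002443, an LQJE brain was above HQJE fish 11, so the groups overlapped. The margin was small in ENSXMAT00000011161, at 0.870 CPM in LQJE fish 17 and 0.859 CPM in HQJE fish 11. The 3 transcripts ENSXMAT00000016272, ENSXMAT00000002443 and ENSXMAT00000011161 had at most 67 counts in any brain. In fish 15, 11, 17 and 18, ENSXMAT00000002443 had 53, 20, 12 and 20 counts and ENSXMAT00000011161 had 52, 19, 12 and 20. These counts are nearly the same in every brain, and whether the transcripts share reads was not tested.

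**Figure D5:**
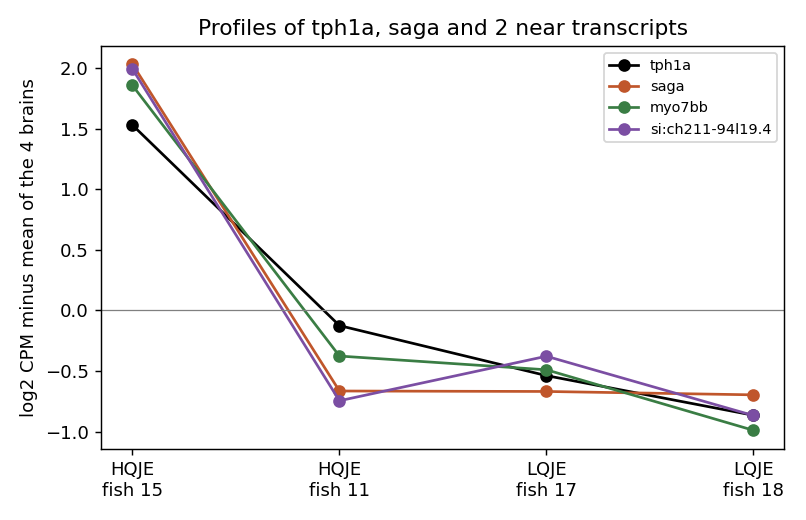
Centred log2 CPM (each brain minus the mean of the 4 brains) of tph1a, saga, myo7bb and si:ch211-94l19.4, with HQJE fish at the left. Each line is a transcript. All 4 transcripts peak in HQJE fish 15, and tph1a declines stepwise over fish 11, 17 and 18 whereas saga is level across them. The other transcripts were chosen by nearness to tph1a or saga, which fixes their peak.

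Both genes belong to a set of transcripts in which fish 15 stood out. Of the 15087 transcripts averaging 1 CPM or more, 24 (0.159%) were at least 2-fold higher in fish 15 than in every other brain, and saga was in place 5 and tph1a in place 10 by the size of that step. A high value in fish 15 raises that average, and some of the 24, such as gpr108, reach 1 CPM only through fish 15. The number and the places are therefore a description. The number depends on how many brains must be passed, and it was 48 without fish 11, 51 without fish 17 and 37 without fish 18. In 9 of the 24, fish 11 was above both LQJE brains by any margin, and in 15 it was not. The 9 include saga, where the step was within counting error, at 1.67 CPM in fish 11 and in LQJE fish 17. With fish 15 on top, fish 11 comes second in some transcripts by order alone, so nothing is read from this count. The list of differing transcripts, drawn up on these same brains, holds 131 of the 18872 transcripts and 8 of the 24. Of the transcripts that stood out in the same way in another brain, it holds 12 of 34 for fish 11, 34 of 391 for fish 17 and 8 of 28 for fish 18. Beside tph1a, saga and the 2 myosins, the 8 of fish 15 are gpr108, ctsl.1, b3gnt7 and ENSXMAT00000000228. The transcript of gpr108 was read 114 times in fish 15 and 0 times in the other brains. The transcript of ctsl.1, a cathepsin L protease, had 14.7 and 0.271 CPM in HQJE fish 15 and 11, against 0.0725 and 0.438 CPM in LQJE fish 17 and 18. That of b3gnt7, a glycosyltransferase, had 2.50 and 1.17 CPM in HQJE fish 15 and 11, against 0.362 and 0.558 CPM in LQJE fish 17 and 18. Only in b3gnt7 among these 4 was fish 11 also above both LQJE brains. The transcripts on that list that were higher in HQJE fish number 48, and fish 15 was above fish 11 in 22 of them and below it in 26. It was more than 2-fold above fish 11 in 13 of them and more than 2-fold below it in 20. The order of brains seen in tph1a and saga was found in 11 of the 48, both genes included, but all 48 were chosen for being higher in HQJE fish, which favours such an order.

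Markers of skeletal muscle that the same list names, 10 transcripts of which 2 are both named tnni2a.4 and can share reads, summed to 20.9 and 33.0 CPM in HQJE fish 15 and 11, against 58.9 and 54.6 CPM in LQJE fish 17 and 18. The gene smyd1a made up 17.2 CPM of the sum in fish 11, and without it the other 9 transcripts summed to 18.4 and 15.8 CPM in HQJE fish 15 and 11, against 57.3 and 53.2 CPM in LQJE fish 17 and 18. The order of the HQJE brains thus turned with this gene, and fish 15 was above fish 11 in 6 of the 10 transcripts. The muscle light chain gene mylpfa was at 0 in both HQJE brains and low in LQJE fish 17 too, at 0.217 CPM, against 1.47 CPM in LQJE fish 18. These markers come from a list that was drawn up on these brains, so their direction is no independent evidence. Of the single blood marker named, mpx, a peroxidase of granulocytes, fish 15 had 8.32 CPM and fish 11 had 17.3 CPM, against 5.29 CPM in LQJE fish 17 and 2.79 CPM in LQJE fish 18. The part of other tissues in the levels of tph1a and saga was not tested. Markers of the pituitary, and of retinal cells other than photoreceptors, were not analysed here.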

How the data were processed

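RNA of 4 whole brains was sequenced by the authors. After removal of adaptors and low quality bases, the authors mapped the reads with Bowtie2 to X. multilineatus transcripts that carry X. maculatus identifiers, and deposited the counts of each transcript without normalization. The treatment of read pairs, strand and reads mapping to several transcripts is not stated in the sources used here, and reads could be shared between tph1a or saga and their paralogs. The condition was taken from the sample labels, which spell the groups with 2 letters exchanged.

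Transcripts with no count (398) were left out, and 18474 entered a fit with TMM scaling and the quasi-likelihood test of edgeR 4.0.16 (limma 3.58.1, R 4.3.3). The test was also run on simulated counts in which chosen transcripts changed equally in both brains of a group. A change carried by a lone brain, as in saga, was not simulated. The threshold was a change of at least 1 on the log2 scale together with an unadjusted p of at most 0.01. The alternatives were the edgeR exact and likelihood ratio tests, DESeq2 1.42.0, other scaling, the filterByExpr filter and each brain left out. Profiles used log2 CPM with a prior count of 2.

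The genes named are tph1a and saga, the listed transcripts with a retinal or photoreceptor annotation, and the 5 nearest profiles to each member. Markers of skeletal muscle and blood that the study's list names are given as well. The transcripts in which fish 15 stood out were chosen after their values were seen. The members and lists were chosen with earlier results of these data known. No sequence is shown, since none of the sources used here holds one.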

Additional observations from a re-analysis of the deposited data

How the results depend on the processing

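At the threshold, edgeR's quasi-likelihood test called 35 of the 18474 transcripts (0.189%), 9 higher (0.0487%) and 26 lower in HQJE fish. None of the 18474 had a Benjamini-Hochberg adjusted p of 0.05 or less in this fit. Whatever the fold change, 35 did in the edgeR exact test, 42 in the likelihood ratio test and 79 with DESeq2. The edgeR exact test called 133 (49 higher and 84 lower), the likelihood ratio test 121 (53 and 68) and DESeq2 53 (18 higher). Without TMM scaling 19 were higher and 21 lower. When single brains were left out the number called ranged from 56 to 348, that of higher transcripts from 28 to 40 and that of lower ones from 16 to 314. The total and the lower transcripts were most without LQJE fish 18, and the higher ones without HQJE fish 15. The log2 fold change of tph1a ranged from 0.58 to 2.24 and that of saga from 0.019 to 2.78 with a brain left out, both lowest without HQJE fish 15 and highest without HQJE fish 11. Under the other 6 alternatives, which use the same brains, that of tph1a lay between 1.63 and 1.70 and that of saga between 1.98 and 2.04. Both moved by less than the SD between replicates, 0.84 for tph1a and 1.35 for saga. That SD includes the gap between the HQJE brains and is therefore a wide measure. Of the 5 nearest transcripts of each gene, all 5 were kept with other scaling or a prior count of 0.5, and 3 with a minimum of 5 CPM, which removes some of them from the search. The 24 transcripts at least 2-fold higher in fish 15 than in every other brain became 48 without fish 11, 51 without fish 17 and 37 without fish 18, since fewer brains must then be passed. The alternatives for these 24 transcripts, and no others, were chosen after seeing the data. The causes of the other changes were not tested. The counts of the pineal and photoreceptor list were not run, because the list holds no further transcript with an identifier. No paired analysis was possible, because each brain came from a different fish and the labels pair no HQJE fish with an LQJE fish. With 23 to 41 counts of saga in 3 of the brains, depth limits what can be seen among them.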
